A study of Mus musculus with 2 samples.

Results

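The SOCS family genes encode 8 related proteins, Socs1 to Socs7 and Cish, and this account follows their RNA in cultured mouse CD8+ T cells. A probe was taken where the platform annotation gave it exactly 1 gene symbol equal to one of these names and where both arrays had a value. The rule found all 8 genes, on 9 probes of the 21427 with both values, with 2 probes for Socs6 and 1 for each of the rest. The family was picked because Socs2 stands near the far negative end of these same arrays, so the members were chosen by their log ratios in this same contrast and their values are given as a description, with no test. The cells were pmel CD8+ T cells, whose transgenic T cell receptor recognises the melanocyte antigen gp100. Their total RNA after 1 round of stimulation in culture (channel 1; the description also says restimulation) was hybridised together with that after 2 rounds (channel 2) on a 2-colour array. There were 2 such arrays and no other group, and the second was labelled as a repeat. No agent, dose, age or culture time is given in the labels, and nothing says whether the repeat used another culture, so the spread between arrays may be technical.

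SOCS proteins are feedback inhibitors of cytokine signalling. A cytokine bound to its receptor activates JAK kinases, which phosphorylate STAT transcription factors, and the STATs switch on SOCS genes among their targets. The SOCS protein then binds the receptor or the kinase through its SH2 domain, and its SOCS box recruits elongins and a cullin to form a ubiquitin ligase. In T cells IL-2 and related cytokines act through STAT5, and Cish, Socs1, Socs2 and Socs3 are well-known cytokine-induced members, while Socs4 to Socs7 are better known from growth factor and insulin signalling.

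A value here is the log of the ratio between the channels of a probe, taken as base 2. A ratio of 1 stimulation over 2 is likely from the order of the titles and channels, so a negative value would be RNA more abundant after 2 stimulations, and the sides swap if the order is the opposite. More cells with a transcript and more transcript per cell cannot be told apart in such bulk RNA. The arrays gave no level for any gene, and their number limits the precision. limma's moderated test over all 21427 probes called 0 at an adjusted p of 0.05 (smallest adjusted p 0.162), with 3186 probes at an unadjusted p under 0.05. From the difference between arrays over all probes, the SD of a single probe on a single array was 0.299. The middle 50% of probes lay between -0.21 and 0.21 on array 1 and between -0.20 and 0.21 on array 2.

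Promoter sequences from RefSeq (build GRCm38.p6) were matched for 4 of the 8 genes, Cish, Socs1, Socs3 and Socs4. Socs2, Socs5, Socs6 and Socs7 had no entry in the table used here. Windows of 250 bases before to 50 after the annotated start were searched on both strands for TTCNNNGAA, the letters of a STAT site, and for GAAA repeated after any 2 bases, letters bound by interferon regulatory factors. TTCNNNGAA reads the same on both strands and was counted once. Both motifs were picked after the array values were known. The sequences of Cish, Socs3 and Socs1 are shown from 220 bases before to 30 after the start, because the first holds the STAT letters more than once, the second holds them once and the third holds the other motif. Capitals mark the matches. The regions are chr9:107296439-107296688 on the plus strand for Cish, chr11:117969337-117969586 on the minus strand for Socs3 and chr16:10785507-10785756 on the minus strand for Socs1.
Cish: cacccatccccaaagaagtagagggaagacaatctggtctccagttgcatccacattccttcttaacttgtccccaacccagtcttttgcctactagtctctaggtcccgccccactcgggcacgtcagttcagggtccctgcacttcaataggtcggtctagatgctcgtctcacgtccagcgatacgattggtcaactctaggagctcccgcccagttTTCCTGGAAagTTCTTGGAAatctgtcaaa
Socs3: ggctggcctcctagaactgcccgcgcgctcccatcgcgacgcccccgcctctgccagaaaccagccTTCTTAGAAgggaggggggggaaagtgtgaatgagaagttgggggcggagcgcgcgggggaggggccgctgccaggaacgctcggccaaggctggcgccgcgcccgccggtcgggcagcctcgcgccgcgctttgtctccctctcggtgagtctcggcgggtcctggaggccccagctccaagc
Socs1: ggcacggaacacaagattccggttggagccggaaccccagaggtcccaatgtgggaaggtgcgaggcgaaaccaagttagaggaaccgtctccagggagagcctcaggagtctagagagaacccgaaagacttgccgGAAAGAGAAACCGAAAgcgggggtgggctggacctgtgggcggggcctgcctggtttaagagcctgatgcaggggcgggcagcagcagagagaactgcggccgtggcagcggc

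Cish held 2 matches to TTCNNNGAA, TTCCTGGAA starting at base 1 of the annotated transcript and TTCTTGGAA starting at base 12. Socs3 held 1, TTCTTAGAA, starting at position -154 from the start. Socs1 and Socs4 held 0. Of 32851 promoters in the table, 8.3% held at least 1 match and 0.457% at least 2. The GAAA repeat was matched 2 times in Socs1, by overlapping stretches that start at -83 and -77, and 0 times in Cish, Socs3 and Socs4, against 3.44% of all promoters with at least 1. A match is a description of letters and does not show that a factor was bound in these cells.

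**Figure D1:**
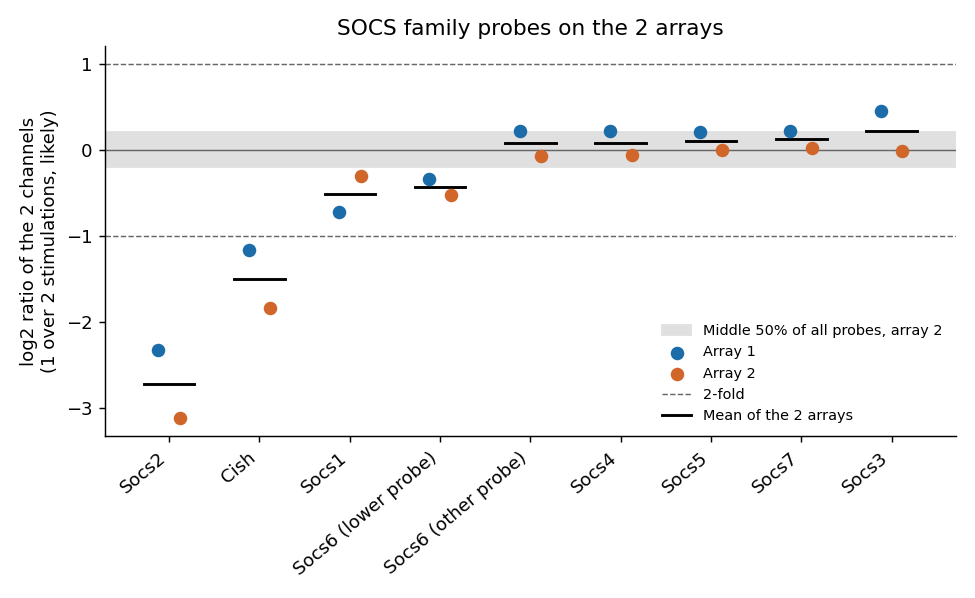
Log2 ratio of the 2 channels (y axis) for each of the 9 SOCS family probes (x axis, in order of the mean), with a point per array, a bar at the mean and a grey band for the middle 50% of all probes on array 2. Socs2 and Cish lie below the dashed 2-fold line on both arrays, and 5 probes lie between -0.07 and 0.45.

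Among the cytokine-induced members, Socs2 was farthest from a ratio of 1. Socs2, best known for restraining growth hormone signalling and also induced by STAT5 in lymphocytes, read -2.33 on array 1 and -3.12 on array 2. The mean was -2.73 ± 0.56 (SD, n = 2), a 6.61-fold difference, or 5.03-fold and 8.69-fold on the single arrays. It ranked 4 from the negative end on array 1, 6 on array 2 and 2 by the mean. Cish, which encodes CIS, an inhibitor of IL-2 receptor and T cell receptor signalling, read -1.16 and -1.84. Its mean was -1.50 ± 0.48 (SD, n = 2), a 2.83-fold difference, and it ranked 51 by the mean. Both genes were on the same side on both arrays and farther out on array 2. Within an array the Socs2 value was below that of Cish by nearly the same amount, the difference Socs2 minus Cish being -1.17 on array 1 and -1.28 on array 2. Array 2 had the wider spread over all probes, with an SD of 0.453 against 0.376.

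Socs1, which blocks JAK activity and is a main brake on interferon gamma and IL-2 signalling, read -0.72 and -0.30. Its mean was -0.51 ± 0.30 (SD, n = 2), a 1.42-fold difference. Socs1 was thus on the side of Socs2 and Cish on both arrays, but its order of the arrays was the opposite, with the value farther from 0 on array 1. On array 1, 3.11% of probes lay below Socs1, and on array 2 17.9% did. Socs3, an inhibitor of receptors that use the gp130 chain and of the IL-12 receptor, read 0.45 and -0.02. Its mean was 0.22 ± 0.33 (SD, n = 2), so its sign turned between arrays and its spread exceeded its mean. The cytokine-induced members therefore did not share a side: 3 were negative on both arrays and Socs3 was not.

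The members of the growth factor branch lay near 0, apart from a single probe. Socs4 and Socs5, close relatives that act on the EGF receptor, read 0.22 and -0.06, and 0.21 and 0.00. Socs7, an adaptor-binding member, read 0.22 and 0.02, the only probe of the family positive on both arrays. The means of these 3 genes were 0.08, 0.11 and 0.12, each smaller than its SD over the arrays (0.20, 0.15 and 0.14). Socs6, a relative of Socs7 known from insulin and KIT signalling, had 2 probes that differed. The probe annotated with the RefSeq transcript of Socs6 read -0.34 and -0.53, a mean of -0.44 ± 0.13 (SD, n = 2). The other probe, annotated with a cDNA clone, read 0.22 and -0.07. The lower probe was below the other by 0.56 on array 1 and 0.46 on array 2, so no single value is given for Socs6. The 5 probes of Socs3, Socs4, Socs5, Socs6 (the cDNA probe) and Socs7 spanned 0.21 to 0.45 on array 1 and -0.07 to 0.02 on array 2. All 5 were higher on array 1, by 0.20 to 0.47.

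In all, 2 of the 9 probes were past 2-fold on the negative side of both arrays and 0 on the positive side. Over all probes the shares were 0.579% and 0.275%. With a 1.5-fold threshold the negative count was again 2, beside 2.37% of all probes. There were 4 probes negative on both arrays, of Socs2, Cish, Socs1 and Socs6, beside 29.3% of all probes, and 1 positive on both, beside 33% of all probes. The median of the 9 probes was 0.075 (0.21 for array 1, -0.07 for array 2), beside 0.005 over all probes. With the 2 differing Socs6 probes averaged into 1 value, the median of the 8 genes was -0.05, beside -0.02 over 14150 genes, so its sign depends on how Socs6 is counted. limma called 0 of the 9 probes, as it called 0% of all probes. Since these arrays chose the family, nothing is read from these counts.

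**Figure D2:**
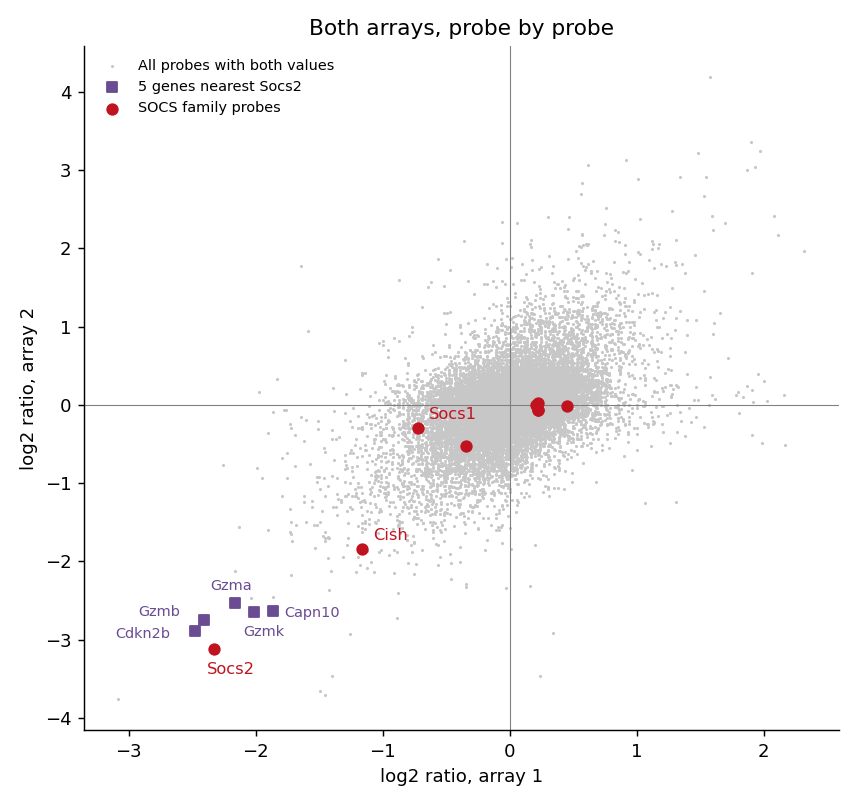
Log2 ratio on array 1 (x axis) against array 2 (y axis) for every probe with both values (grey), the SOCS family probes (red) and the 5 genes nearest Socs2 (purple squares). Socs2 stands with granzyme genes at the lower left, Cish between them and the main cloud, and the other members within or at the edge of the cloud.

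The genes with the pair of values nearest that of Socs2 were found by Euclidean distance over the 2 arrays among singly named probes. Cdkn2b, an inhibitor of cyclin-dependent kinases, was nearest, with -2.48 and -2.89 and a distance of 0.275. Gzmb followed with -2.41 and -2.75 (distance 0.379), then Gzmk with -2.01 and -2.65 (distance 0.569) and Gzma with -2.16 and -2.53 (distance 0.614). These 3 encode granzymes, the proteases of cytotoxic granules. The calpain gene Capn10 was the fifth, with -1.86 and -2.64. For Cish, a list added after its values were seen, the nearest were Tipin, a replication fork gene, at -1.12 and -1.87 and Psat1, a serine synthesis enzyme, at -1.28 and -1.79. Cltrn, the steroid and fatty acid enzyme gene Hsd17b12 and the spindle checkpoint kinase gene Bub1 (-1.27 and -1.70) came next. With 2 arrays, likeness here means a similar size on each array and no more.

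The probes of Socs6 (the lower one), Socs2, Cish and Socs1 stand close together in the order of probe numbers, within a stretch of 9 places. The 5 other probes of that stretch lay between -0.19 and 0.66 on array 1 and between -0.15 and 0.03 on array 2. Next to Socs2 stood Cort at -0.19 and -0.15 and Gip at -0.01 and -0.13, hormone genes. The other probes within 3 places were those of Scg5 (-0.25 and -0.08), Nmi (0.66 and 0.02) and Ghrh (0.15 and -0.01), beside that of Socs6. Of the 21 non-member probes within 12 places, 0 were at least 2-fold on both arrays. Over all probes the shares were 0.579% on the negative side and 0.275% on the positive side. With shares this small, a count of 0 among 21 probes says little. The lowest of the 21 was that of Adora3, at -1.06 and -0.91. So the values of Socs2 and Cish were not shared by the non-member probes listed between and beside them. The 4 member probes of the stretch were, however, the 4 of the family negative on both arrays. The 5 member probes elsewhere were not, among them the other Socs6 probe. A part of probe position in this was not tested. The sources used here do not say how the order of numbers relates to places on the slide.

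**Figure D3:**
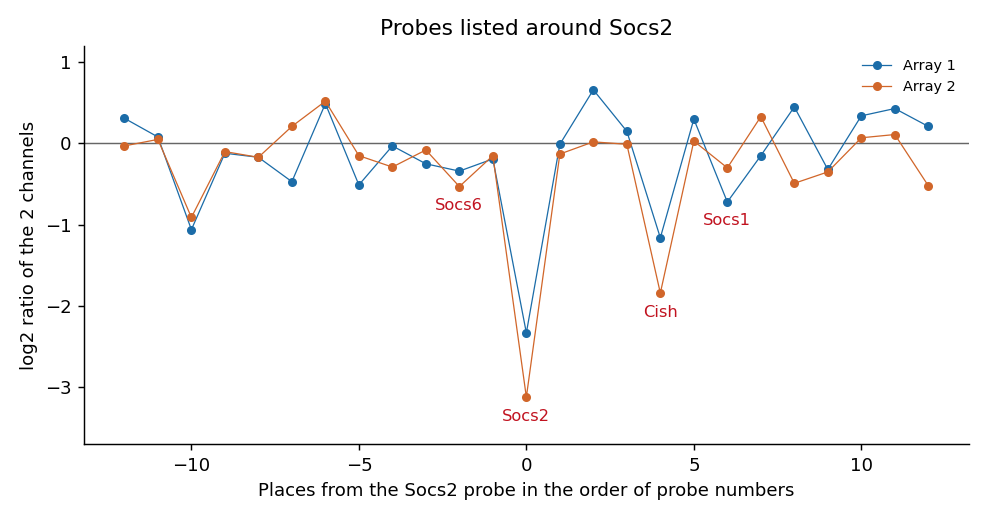
Log2 ratio (y axis) on array 1 (blue) and array 2 (orange) for the probes within 12 places of the Socs2 probe in the order of probe numbers (x axis). Socs2 and Cish stand apart from the probes beside them on both arrays.

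Upstream of the SOCS genes, 3 of the 4 JAK kinases lay on the side opposite to Socs2 on both arrays, and Tyk2 turned sign. Jak1, which serves most T cell cytokine receptors, read 0.51 and 0.64. Jak2, which serves the interferon gamma, IL-12 and growth hormone receptors, read 0.29 and 1.06. Jak3, the partner of the common gamma chain of the IL-2 family receptors, read 0.13 and 0.76, while Tyk2 read -0.21 and 0.45. Both arrays were positive for 3 of the 4 kinases and negative for 0, and the median was 0.51, beside 29.6% positive and 33.6% negative over all genes. Array 2 was higher than array 1 for each of them.

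The STAT genes were likewise positive or near 0. Stat4, which carries the IL-12 signal, read 0.75 and 1.40, a mean of 1.08 ± 0.46 (SD, n = 2). Stat2, of the type I interferon pathway, read 0.66 and 0.39. Stat3 read 0.11 on both arrays and Stat6, the IL-4 factor, 0.09 and 0.08. Stat5a, a direct inducer of Cish and Socs2, read -0.04 and -0.02. Both arrays were positive for 4 of 5 measured STAT genes and negative for 1, beside 29.6% and 33.6% of all genes. The median was 0.11, and Stat3, Stat6 and Stat5a were no more than 0.11 from 0. RNA of Stat5a thus had a ratio close to 1 where Socs2 and Cish did not, and phosphorylation of STAT proteins was not measured.

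Cytokine receptor genes were spread over both sides, both arrays being positive for 7 of 19 and negative for 3 (median 0.02). These were 36.8% and 15.8%, beside 29.6% and 33.6% of all genes. Il7r, the receptor chain for IL-7, was past 2-fold on the positive side of both arrays, with 1.58 and 4.19. Il2rb, the signalling chain shared by the IL-2 and IL-15 receptors to which CIS binds, stood on the side of Socs2 at -0.42 and -1.18. The 3 probes of Il2ra, the high-affinity IL-2 receptor chain and itself a STAT5 target, disagreed. They read -1.14 and -1.59 (past 2-fold on the side of Socs2), -0.21 and -0.61, and 1.35 and -0.21. No single value is given for the gene here, but the average of its probes entered the list counts and medians. Il6st, the gp130 chain whose signal Socs3 blocks, had probes at 0.92 and 1.68 and at -0.08 and -0.29, which also disagree. Il27ra read 0.03 and 1.06.

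Among 11 measured cytokine genes, 2 had both values above 0 and 2 had both below 0 (median 0.01). Both shares were 18.2%, lower than the 29.6% above and 33.6% below 0 over all genes. Of the 11, Ifng alone, whose signal induces Socs1, passed 2-fold on each array, at -1.41 and -2.12. Over all genes, 0.721% did so on the negative side and 0.233% on the positive side. Il7 read 0.70 and 1.10 and Csf3 -0.72 and -0.07. Il2, the main T cell growth factor, read 0.18 and -0.27, and the 2 probes of Il15 read 1.02 and 0.07, and -0.17 and 0.01.

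**Figure D4:**
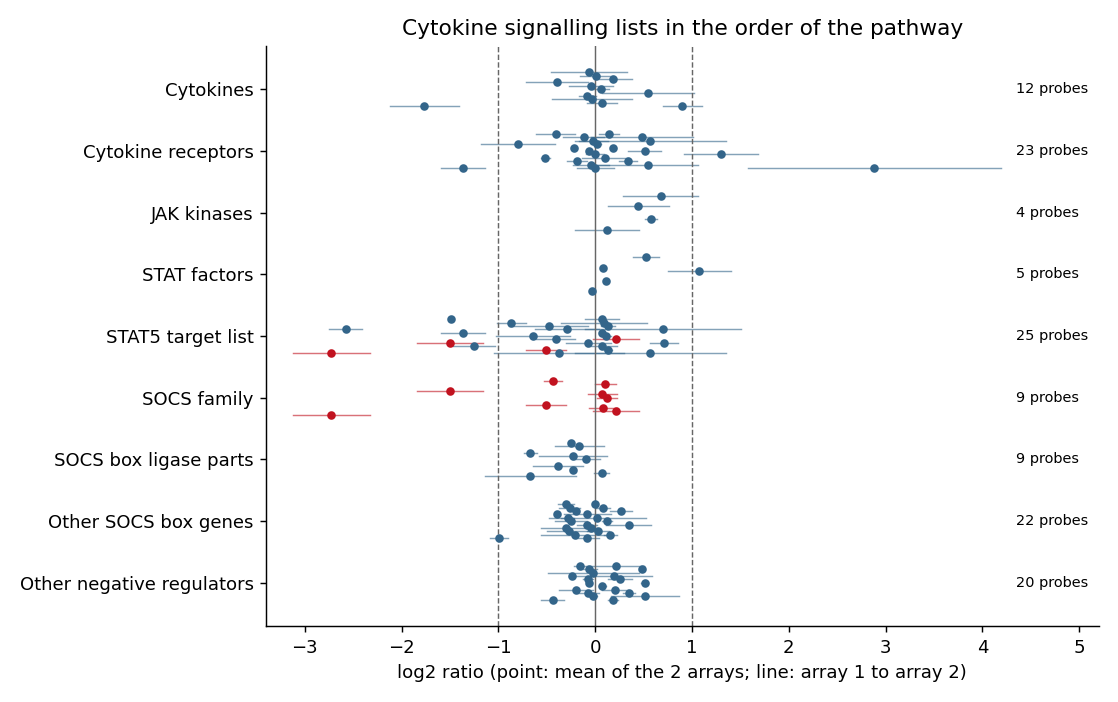
Log2 ratio (x axis) of each probe of the pathway lists (y axis, ordered from cytokines to inhibitors), as the mean of the 2 arrays (point) with a line from the array 1 to the array 2 value; SOCS family probes are red and dashed lines mark 2-fold. Every JAK kinase mean is positive and most SOCS box ligase means are negative, all within the 2-fold lines.

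Genes known as STAT5 targets were set beside the family, from a list that also held Cish, Socs1, Socs2 and Socs3. Without those, both arrays were negative for 6 of 17 measured genes and positive for 4 (35.3% and 23.5%, beside 33.6% and 29.6% of all genes). The median was -0.29 (-0.07 for array 1, -0.62 for array 2), on the side of Socs2, beside -0.02 over all genes (-0.02 and -0.01). This list was chosen with earlier results of these data known, so nothing is read from its median. Gzmb and Id2, an inhibitor of E-protein transcription factors at -1.49 on both arrays, passed 2-fold on the negative side of both arrays. So did 1 of the 2 probes of the perforin gene Prf1, at -1.04 and -1.47, where the other read 0.05 and 0.09, and 1 of the 3 probes of Il2ra given above. Beside them, 0.721% of all genes were at least 2-fold negative and 0.233% at least 2-fold positive. Prf1 entered the list counts as the average of its 2 differing probes, -0.495 and -0.69, and was among the 6 negative genes. Ccnd3, a cyclin of entry into the cell cycle, read -1.01 and -0.72, and Bcl2, a survival gene, -0.26 and -1.03. Others lay on the opposite side or turned sign. The survival gene Mcl1 read 0.57 and 0.86, the kinase gene Pim1 -0.11 and 1.51 and Myc 0.30 and -1.05.

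SOCS proteins work through a ligase of elongins, a cullin and a RING protein. Both arrays were negative for 5 of 9 measured genes listed for this machinery and positive for 0, beside 33.6% and 29.6% of all genes. The list also held Cul2, Rbx1 and Nedd8, which are not particular to SOCS proteins, and Rbx1 and Nedd8 were among the 5. The median of the list was -0.23 (-0.13 for array 1, -0.42 for array 2). Eloc and Elob, the elongins that bind the SOCS box, read -0.20 and -1.14, and -0.25 on both arrays. Cul5, the cullin that SOCS proteins recruit, read 0.09 and -0.42, and its RING partner Rnf7 -0.01 and 0.14. Both turned sign between arrays and so were in neither count. Arih2, a ligase that works with Cul5, read -0.60 and -0.74 and Rbx1, the RING protein of other cullins, -0.13 and -0.64. These values were small beside those of Socs2 and Cish, and 0 of the 9 genes were at least 2-fold on both arrays. Over all genes the shares were 0.721% on the negative side and 0.233% on the positive side.

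Other proteins carry a SOCS box without being SOCS proteins. For 21 measured genes of this kind, 9 had both values below 0 and 5 had both above 0 (median -0.08). These were 42.9% and 23.8%, beside 33.6% and 29.6% of all genes. Asb2, a ligase adaptor of the ankyrin repeat and SOCS box family, was farthest out at -1.09 and -0.90. Asb10 read -0.40 and -0.38 and Asb15 0.11 and 0.58. Inhibitors of the same pathway that act by other means, the phosphatases, PIAS proteins and adaptors, gave 7 positive and 5 negative of 17 genes, with a median of 0.10. These were 41.2% positive and 29.4% negative, beside 29.6% and 33.6% of all genes. Usp18, an interferon-induced brake on the type I interferon receptor, read 0.47 and 0.55, and Ptprc, the CD45 phosphatase, 0.87 and 0.16. Sh2b1 read 0.41 and 0.29. Neither list had a gene at least 2-fold on both arrays, beside 0.721% of all genes on the negative side and 0.233% on the positive side.

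Proteins that SOCS members are known to bind or degrade were also listed. The list also held the gene Mal (-0.04 and 0.14), which is not of this kind and entered by its name. The adaptor known as Mal is encoded by Tirap, also listed. Both values were above 0 for 5 of 17 genes and below 0 for 5 (median -0.01). Each was 29.4%, beside 29.6% above and 33.6% below over all genes. Kit, a receptor tied to Socs1 and Socs6, read 0.67 and 0.65. The 3 probes of Igf1r, a receptor tied to Socs2, were positive on both arrays and averaged 0.42 and 0.54. Zap70 read -0.31 on both arrays.

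Markers of the cells were read in the same way, as ratios without levels. Both values were above 0 for 7 of 8 T cell marker genes (87.5%) and below 0 for 0 of them (median 0.37). The mean of the 2 Cd8a probes was 0.64. Over every measured gene, the shares to set beside this and the later marker counts were 29.6% above and 33.6% below 0. Most of the T cell marker genes lay on the side opposite to Socs2 and Cish, while the granzyme genes and Ifng given above lay on the side of Socs2. Of 7 B cell genes, 4 were positive and 2 negative, led by Cd79b at 0.67 and 1.62. Of 8 myeloid genes 2 were positive and 3 negative, and of 4 CD4 T cell genes 2 and 0. Of 5 NK cell genes, 3 were negative, on the side of Socs2, and 1 was positive, with Klrb1c at -0.77 and -1.88 and Nkg7, which CD8+ T cells also express, at -0.27 and -0.45, and Klra8 at 0.86 and 0.06. The part of such cells in the values of Socs2 and Cish was not tested.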

How the data were processed

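The authors deposited 1 signed value per probe and array, used here as log2 ratios of the 2 channels. The scanner, background correction, normalization and log base are not given in the sources used here. Medians of the log2 ratios as deposited were 0.01 and 0.02 on the 2 arrays, so a shift of all genes would not be seen. Of 21919 probes, 492 lacked a value on at least 1 array and were left out. The platform annotation gave 15998 probes 1 gene symbol, 288 several and 5633 none. The Entrez IDs of all 9 SOCS family probes and the transcript accessions of 6 were found under the same symbol in a RefSeq table.

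limma 3.58.1 in R 4.3.3 was fitted over 21427 probes, an intercept over both arrays against 0, with Benjamini-Hochberg adjustment at 0.05. A run on simulated ratios, with noise drawn from the fit's own spread model, was a check of the code only. It says nothing about the calls on these arrays. At least 2-fold means a log2 value of 1 or more from 0 on each array, on the same side. Genes with several probes were averaged for list counts. Named genes were every member, JAK and STAT gene, list genes at least 2-fold on both arrays, up to 3 further genes per list by mean, the 5 nearest to Socs2 and the probes within 3 places of it. Some further list genes were named for their role, after their values were seen. The members and the 15 lists were chosen with earlier results of these data known. Alternatives were median centring, quantile normalization, leaving out each array, 1.5-fold, natural logs, a robust prior and 1 value per gene.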

Additional observations from a re-analysis of the deposited data

How the results depend on the processing

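Socs2 and Cish were the 2 members at least 2-fold on both arrays with median centring, quantile normalization, a 1.5-fold threshold, natural logs and on either array alone. Means of the 9 probes moved by less than their SD between arrays under median centring and quantile normalization. With 2 arrays, leaving 1 out cannot move a mean by its SD, so that comparison shows nothing about stability. Socs4, Socs3 and the cDNA probe of Socs6 turned sign on array 2 alone. The number of member probes on the negative side was 4 to 7 when 1 array was left out, the 7 being array 2 alone (without replicate 1). Over all probes, 183 passed 2-fold on the same side of both arrays. Leaving out 1 array gave 453 to 1003. At 1.5-fold it was 880 and with natural logs 577. limma called 0 probes or genes under every alternative run, with 3186 to 3358 probes at an unadjusted p under 0.05 (2291 with 1 value per gene) and smallest adjusted p-values of 0.082 to 0.162. Each ratio already pairs both stages on 1 array, so the fit against 0 is the paired one. If the ratio runs the other way, every sign turns. A bias of the dyes cannot be told apart from a difference in RNA where both arrays used the same dyes.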

Other observations

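Genes that hold the STAT letters TTCNNNGAA in a RefSeq promoter window were set beside all genes with a promoter in the table, a look added after the values of Cish were known. Among 11127 measured genes with a promoter, the median log2 ratio was -0.025, and 0.755% were at least 2-fold negative and 0.243% at least 2-fold positive on both arrays. Among 978 genes with at least 1 match the median was -0.01, with 6 genes (0.613%) at least 2-fold negative and 5 (0.511%) positive. The 6 were Cish, Gzmb, Ifng, Lilr4b and the replication genes Cdc45 and Lig1, and the 5 were Il7r, Nsg2, Oas1a, Slc28a2 and Tgtp1. Of 66 genes with 2 or more matches, Cish was the 1 gene at least 2-fold on both arrays, and the median was 0.025. Genes with these letters therefore lay on both sides of 0, and nothing is called particular to them.

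Among 403 genes with the GAAA repeat, the letters found in the Socs1 promoter, 4 (0.993%) were at least 2-fold negative and 6 (1.49%) positive, with a median of -0.01. Socs1 itself, at -0.51, was in neither count.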
